A study of Mus musculus with 28 samples.

Results

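H3K18la, lactylation of lysine 18 on histone H3, was compared between day 4 and day 2 of retinoic acid treatment in P19 cells, a mouse embryonal carcinoma line that can be turned into neural cells in culture. Day 4 regions were the stretches of bases that lay inside a peak in both day 4 libraries, and they were set against the peaks of the single day 2 DMSO library. A region or peak that overlapped the other day by at least 1 base was shared, and the others belonged to one day only. Of 42586 day 4 regions, 20604 (48.4%) were found at day 4 only and 21982 were shared, and of 36382 day 2 peaks, 13466 (37.0%) were found at day 2 only and 22916 were shared. The day 4 regions and the day 2 only peaks together made 56052 regions, and merging the 14 peak lists of the whole series gave 118459 regions.

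The day 4 cells had received 1 µM retinoic acid for 4 days and are labelled as neural stem and progenitor cells. The day 2 cells had received 1 µM retinoic acid for 2 days, with 1 µL of the solvent DMSO added after 24 h as the control of an arm with MS-275, a histone deacetylase inhibitor. The labels name no DMSO for the day 4 cells, so time in retinoic acid and DMSO cannot be told apart. H3K18la, H3K9ac (acetylated lysine 9) and H3K9cr (crotonylated lysine 9) were each mapped by native ChIP-seq, which reads nucleosomes without crosslinking, in 2 day 4 libraries and 1 day 2 DMSO library. ATAC-seq, which reads open chromatin, had 2 day 4 libraries, and RNA-seq had 2 libraries on each day. All cells came from 1 cell line, and the series describes its replicates as biological.

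Lactyl groups on histones derive from lactate through lactyl-CoA, and the acetyltransferase p300 is among the enzymes that can attach them. H3K18la is known from several cell types as a mark of active promoters and of enhancers, where it is found beside acetylation. Retinoic acid drives pluripotent P19 cells towards a neural fate and switches on Hox genes, the positional regulators of the embryonic trunk and hindbrain, which lie in 4 clusters.

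The promoters of 4 genes show the sequence under H3K18la that was present within 1 kb of the start on one day only. Neurog2, a proneural transcription factor (chr3:127632886-127633185), and Myt1, a zinc finger factor of young neurons (chr2:181763082-181763381), had it at day 4 only. Nodal, a TGF-beta family signal of pluripotent cells (chr10:61417722-61418021), and Plcg2, a phospholipase (chr8:117498025-117498324), had it at day 2 only. Each sequence runs 5′ to 3′ on the plus strand of GRCm38.p6, from RefSeq, from 250 bases before the start to 50 after it, and capitals mark the CpG dinucleotides.
Neurog2: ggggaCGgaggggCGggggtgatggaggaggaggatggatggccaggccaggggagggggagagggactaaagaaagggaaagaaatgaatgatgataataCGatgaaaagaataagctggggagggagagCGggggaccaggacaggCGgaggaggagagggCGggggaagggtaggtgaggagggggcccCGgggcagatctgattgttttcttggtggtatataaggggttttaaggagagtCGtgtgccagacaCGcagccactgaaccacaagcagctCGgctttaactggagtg
Myt1: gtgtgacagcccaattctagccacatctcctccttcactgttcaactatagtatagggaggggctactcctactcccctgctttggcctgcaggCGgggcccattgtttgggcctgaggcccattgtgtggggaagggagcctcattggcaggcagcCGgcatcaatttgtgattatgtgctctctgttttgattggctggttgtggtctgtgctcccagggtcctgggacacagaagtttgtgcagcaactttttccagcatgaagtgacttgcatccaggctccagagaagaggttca
Nodal: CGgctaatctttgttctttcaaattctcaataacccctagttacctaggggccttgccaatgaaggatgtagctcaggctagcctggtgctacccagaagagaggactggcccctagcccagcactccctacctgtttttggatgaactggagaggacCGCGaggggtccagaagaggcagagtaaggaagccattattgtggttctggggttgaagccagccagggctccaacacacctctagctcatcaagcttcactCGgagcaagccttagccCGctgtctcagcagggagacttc
Plcg2: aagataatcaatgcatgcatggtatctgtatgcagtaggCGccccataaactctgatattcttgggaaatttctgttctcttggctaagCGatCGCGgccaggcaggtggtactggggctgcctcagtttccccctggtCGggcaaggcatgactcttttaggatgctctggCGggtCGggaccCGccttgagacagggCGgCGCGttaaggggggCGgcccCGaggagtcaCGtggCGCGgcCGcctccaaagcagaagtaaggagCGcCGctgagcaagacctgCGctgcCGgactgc
H3K18la peaks covered all 300 bases of the Myt1 promoter in both day 4 libraries and none at day 2. They covered 45 and 125 bases of the Neurog2 promoter at day 4 and none at day 2. The Nodal promoter was covered in none of its bases at day 4 and in all 300 at day 2, and that of Plcg2 in none at day 4 and in 35 bases at day 2. The CpG count was 10 for Neurog2, 2 for Myt1, 5 for Nodal and 21 for Plcg2, so the CpG-poor and the CpG-rich example do not fall on one side.

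RNA totals lay between 18115926 and 19586374 estimated counts per library. Of 17789 genes tested with edgeR's quasi-likelihood test, 10880 (61.2%) were called between day 4 and day 2 DMSO at a Benjamini-Hochberg adjusted p under 0.05. Called genes that were higher at day 4 numbered 5443 (30.6%), and 5437 (30.6%) were lower. The p-values measure the spread between 2 libraries a group. In bulk RNA, a change in the share of cells of a type and a change in RNA per cell cannot be told apart.

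Markers of the labelled cell type were mixed in the RNA. Of 32 tested neural stem and progenitor genes, 21 were higher and 8 lower at day 4, with a median log2 fold change of 0.63 against 0 over all tested genes. Of 37 tested neuron genes, 31 were higher and 2 lower (median 2.92), and their summed level was 5966 and 5664 CPM at day 4, against 1023 and 992 CPM at day 2. Sox1, an early neural plate factor, was slightly lower at day 4 (85.5 and 77.8 CPM) than at day 2 (108.7 and 105.6 CPM; edgeR adjusted p = 0.0003365). Of 28 tested pluripotency genes, 4 were higher and 16 lower, with a summed level of 577 and 564 CPM at day 4 and 1225 and 1242 CPM at day 2. Fibroblast and mesenchyme genes, a sign of other cell types, were higher in 12 of 16 tested and lower in 1, at a sum of 1544 and 1692 CPM at day 4 against 376 and 394 CPM at day 2. Neural crest genes summed to 465 and 452 CPM at day 4 and 439 and 445 CPM at day 2, and astrocyte and oligodendrocyte genes to 330 and 330 CPM at day 4 and 185 and 182 CPM at day 2. Beside these counts, 30.6% of all tested genes were higher and 30.6% lower. The part of other cell types in the results was not tested.

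More of the genome lay in H3K18la peaks at day 4. The 2 day 4 lists held 54865 and 51057 peaks over 52.0 and 50.8 Mb, against 36382 peaks over 26.8 Mb at day 2. Of the day 4 peaks, 71.9% and 74.8% overlapped the other day 4 list, while 42.8% and 44.9% overlapped the day 2 list. The read depth of these libraries is unknown, and a longer list has more room to overlap. With each list held to its 36382 strongest peaks, the day 4 peaks overlapped the other day 4 list in 77.9% and 75.4% and the day 2 list in 55.5% and 56.0%. The day 4 libraries overlapped each other more than day 2 at equal list length too. At that length, 11363 day 4 regions (37.6%) were day 4 only and 16165 day 2 peaks (44.4%) were day 2 only, so which day had more peaks of its own turned with the list length. With 1 day 4 library in place of both, 28151 (without replicate 1) and 31405 (without replicate 2) day 4 regions were day 4 only.

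One-day regions were narrow and weak beside the shared ones. The median width was 404 bases for day 4 only regions and 806 for shared day 4 regions, and 344 bases for day 2 only peaks and 670 for shared day 2 peaks. The authors' fold enrichment had medians of 4.30 and 4.05 in the 2 libraries at day 4 only regions, against 6.0 and 5.89 at shared regions. At day 2 only peaks its median was 4.33, against 5.95 at shared day 2 peaks. Sorted by fold enrichment into 5 bins of equal size, 26.1% of the weakest and 88.5% of the strongest day 4 regions were shared with day 2, and 39.6% of the weakest and 93.1% of the strongest day 2 peaks were shared with day 4. Of the day 2 only peaks, 34.1% overlapped a peak of at least 1 day 4 library.

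At the edge of the overlap rule, 226 shared day 4 regions touched a day 2 peak by under 50 bases, and 160 day 4 only regions lay under 50 bases from one. Day 4 only regions lay at a median of 8180 bases from the nearest day 2 peak, and 19.6% of them lay under 1 kb from one. Where both days had a peak, the merged locus held a median of 884 bases in peaks at day 4 and 768 at day 2, with a median ratio of 1.12. In 60.1% of such loci day 4 had more bases.

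The 2 kinds of region also lay in different places. Only 11.4% of day 4 only regions and 17.2% of day 2 only peaks lay within 1 kb of an annotated start, against 46.3% of shared day 4 regions and 45.6% of shared day 2 peaks. Outside protein-coding genes and their starts lay 48.0% of day 4 only regions, 43.1% of day 2 only peaks and 24.2% of shared day 4 regions. Among autosomes, the share of day 4 regions that were day 4 only lay between 41.9% on chromosome 19 and 54% on chromosome 1.

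The strongest day 4 only region by the authors' fold enrichment (17.6 and 16.6 in the 2 libraries) was chr9:110048072-110049769, inside Map4, a microtubule-associated protein. The next was chr4:45827014-45834254, inside Stra6l, a relative of the retinol transporter Stra6, at 15.6 and 16.6. The others of the top 4 lay outside protein-coding genes, chr12:112328242-112331329 at 146495 bases from Kif26a and chr14:24614329-24620364 at 117369 bases from Rps24, over the start of the predicted gene 4931403M11Rik. The strongest day 2 only peak, chr10:33904357-33905992 at a fold enrichment of 23.5, overlapped Rsph4a, a radial spoke protein of cilia. It was followed by chr1:67157703-67159313 inside Cps1, a urea cycle enzyme, at 20.2. The next day 2 only peaks were chr7:24849456-24853001 at 11616 bases from Lypd4 and chr13:21861054-21862581 at 23524 bases from the histone gene H4bc24, at fold enrichments of 18.7 and 18.6. In 3 of these 4 day 2 only peaks at least 1 day 4 library had a peak that the other library lacked or that did not share bases with it.

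The widest shared region was over Hox genes on both days. At day 4 it was chr11:96303519-96341123, a domain of 37605 bases that begins at Hoxb5, and at day 2 it was chr6:52151621-52166355, a peak of 14735 bases over Hoxa2. The widest day 4 only region (chr8:88375174-88384054, 8881 bases) lay 12922 bases from Brd7, and the widest day 2 only peak (chr6:101409801-101414657, 4857 bases) lay 31904 bases from Pdzrn3.

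Genes with H3K18la at their start at day 4 only were more often higher than lower at day 4, and genes with it at day 2 only were more often lower than higher. A start counted as marked when a region touched the window of 1 kb on each side, and 12018 tested genes had an annotated start. Of these, 31.6% were higher and 32.8% lower at day 4. Of 1254 genes with H3K18la at day 4 only, 668 were tested, and 346 of them (51.8%) were higher and 100 (14.97%) lower. Of 1429 genes with H3K18la at day 2 only, 915 were tested, and 153 (16.7%) were higher and 425 (46.4%) lower. A further 170 day 4 only and 178 day 2 only genes had RNA counts but did not pass the filter on low counts. The rest of both classes had no RNA counts under the same gene name. The 8157 tested genes marked on both days were higher in 33.5% and lower in 35.5%, near the share over all genes, and the 2278 with neither were higher in 25.02% and lower in 22.5%.

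**Figure D1:**
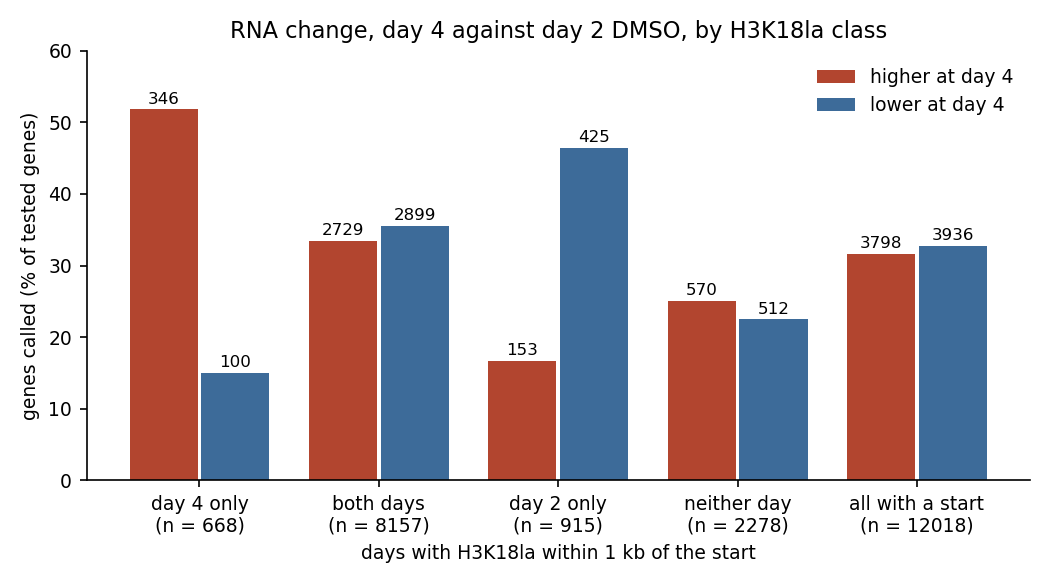
Share of tested genes called higher (red) or lower (blue) at day 4 against day 2 DMSO, in % on the vertical axis, by the days on which H3K18la lay within 1 kb of the start; numbers over bars are genes. Higher genes prevail in the day 4 only class (346 of 668) and lower genes in the day 2 only class (425 of 915), while genes marked on both days resemble all genes with a start.

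The size of the change went with the class too. At least 2-fold higher at day 4 were 35.0% of day 4 only genes and 7.87% of day 2 only genes, against 13.7% of all tested genes with a start. At least 2-fold lower were 4.49% of day 4 only genes and 24.7% of day 2 only genes, against 9.91% of all tested genes. The median log2 fold change was 0.48 in the day 4 only class, −0.34 in the day 2 only class and −0.01 in genes marked on both days. Most changed genes still had H3K18la on both days or on neither: of 892 genes at least 4-fold higher, 19.7% were day 4 only, 42.0% marked on both days and 34.6% on neither, and of 410 at least 4-fold lower, 29.0% were day 2 only, 30.0% marked on both days and 38.8% on neither. Over all tested genes with a start, 5.56% were day 4 only and 7.61% day 2 only.

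Levels moved in the same direction, and both libraries of a day were alike. Day 4 only genes had medians of 12.7 and 12.5 CPM in the day 4 libraries, against 5.97 and 5.94 CPM in the day 2 libraries. Day 2 only genes had medians of 5.40 and 5.33 CPM at day 4 and 8.01 and 8.41 CPM at day 2. Genes marked on both days had 38.9 and 39.1 CPM at day 4 and 37.7 and 37.5 CPM at day 2, so the one-day classes held less abundant RNAs than the shared class. Genes with neither had medians of 0.944 and 0.999 CPM at day 4 and 0.785 and 0.739 CPM at day 2. In cells outside this comparison, day 4 only genes had medians of 6.25 and 6.50 CPM at day 0 and 14.9 and 14.3 CPM at day 8.

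By rule, the 8 largest rises of the day 4 only class are named first. Slc6a5, the glycine transporter of inhibitory neurons (chromosome 7, 49906984 to 49963864), had 43.4 and 32.8 CPM at day 4 and no counts at day 2, at least 466-fold higher against a floor of 3 counts over the day 2 group. Its gene and 5 kb on each side held 3643 and 2517 bases in H3K18la peaks at day 4 and 420 at day 2. Slc32a1, the vesicle transporter of GABA and glycine (chromosome 2, 158607260 to 158615747), had 37.98 and 31.5 CPM at day 4 and 0.105 and 0.17 CPM at day 2 (log2 fold change 7.93, SE 0.295, adjusted p = 6.162e-13). The locus held 5334 and 3824 bases in peaks at day 4 and none at day 2. Both are genes of inhibitory transmission. Neurod2, a bHLH factor of neurons, had 6.98 and 4.44 CPM at day 4 and no counts at day 2 (at least 69.8-fold), with 3877 and 4056 bases in peaks at day 4 and 247 at day 2.

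Neurog2 itself had 52.8 and 57.1 CPM at day 4 and 0.157 and 0.284 CPM at day 2 (log2 7.93, SE 0.302, adjusted p = 8.205e-13). The window of 1 kb on each side of its start held 1469 and 1691 bases in peaks at day 4 and none at day 2, when a peak lay elsewhere in the locus. Uncx, a homeobox factor of the neural tube and somites (chromosome 5, 139543865 to 139548179), had 91.1 and 89.0 CPM at day 4 and 0.262 and 0.0568 CPM at day 2, and 12048 and 9681 bases in peaks at day 4 against 685 at day 2. Uncx has a fold that depends on a single library, as do some, but not all, of the other genes given here in CPM alone. Prdm8, a repressor of the developing nervous system, had 50.7 and 54.7 CPM at day 4 and 0.209 and 0.227 CPM at day 2, a 235-fold rise, and its locus held 9646 and 10671 bases at day 4 against 1026 at day 2. Hoxa9 had 21.3 and 18.4 CPM at day 4 and 0.157 and 0 CPM at day 2, with 9281 and 9121 bases at day 4 and 981 at day 2. Mlc1, a membrane protein of astrocytes, had 9.44 and 8.05 CPM at day 4 and no counts at day 2, at least 107-fold higher. Non-overlap of the days was part of the rule that chose these 8 genes.

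**Figure D2:**
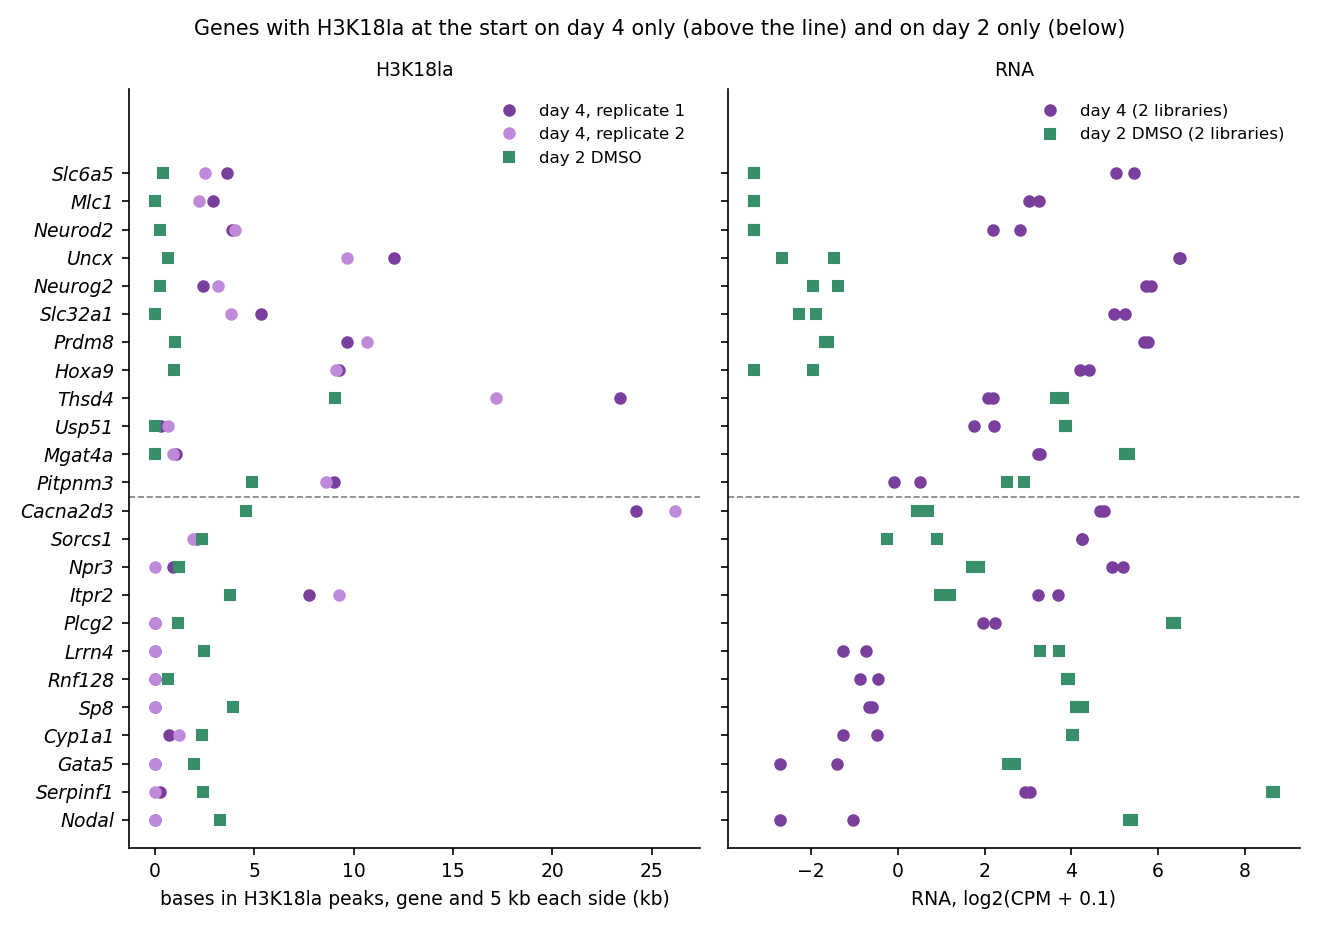
Genes named by rule with H3K18la at the start at day 4 only (above the dashed line) and at day 2 only (below it); left, bases in H3K18la peaks over the gene and 5 kb on each side (kb) in the 2 day 4 libraries (circles) and the day 2 DMSO library (squares); right, RNA as log2(CPM + 0.1) in 2 libraries a day. Uncx, Prdm8 and Hoxa9 hold about 9 kb or more at day 4 against about 1 kb or less at day 2, and Nodal, Sp8, Gata5, Lrrn4, Rnf128 and Plcg2 hold none at day 4.

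A mark at day 4 only did not always come with more RNA. The largest falls of the day 4 only class were Pitpnm3, with 0.839 and 1.33 CPM at day 4 and 7.43 and 5.63 CPM at day 2, and Mgat4a, a glycan-branching transferase of the Golgi, with 9.23 and 9.55 CPM at day 4 and 37.7 and 40.2 CPM at day 2. The deubiquitinase Usp51 (3.25 and 4.55 CPM at day 4, 14.3 and 14.6 CPM at day 2) and Thsd4 (4.51 and 4.11 CPM at day 4, 12.4 and 13.9 CPM at day 2) fell as well. Pitpnm3 and Thsd4 had peaks elsewhere in the locus at day 2, of 4880 and 9043 bases.

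The largest falls of the day 2 only class included signals and factors of pluripotent and early embryonic cells. Nodal had 0.0525 and 0.389 CPM at day 4 and 40.5 and 41.9 CPM at day 2, and its locus held no H3K18la peak in either day 4 library, against 3293 bases at day 2. Sp8, a zinc finger factor of limb and neural patterning (chromosome 12, 118846288 to 118852578), had 0.524 and 0.555 CPM at day 4 and 19.1 and 17.2 CPM at day 2 (log2 −5.06, SE 0.208, adjusted p = 2.1e-12), with no bases in peaks at day 4 and 3952 at day 2. Gata5, a factor of endoderm and heart, had 0.0525 and 0.278 CPM at day 4 and 6.44 and 5.68 CPM at day 2, with none and 1993 bases in peaks. Plcg2 had 4.62 and 3.77 CPM at day 4 and 80.5 and 83.4 CPM at day 2 (log2 −4.28, SE 0.0993, adjusted p = 2.794e-15), with none at day 4 and 1160 bases at day 2. Lrrn4 and the ubiquitin ligase Rnf128 were likewise without a peak over the locus at day 4, against 2499 and 678 bases at day 2.

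Serpinf1, a secreted serpin known as PEDF, was the most abundant of these genes, with 8.18 and 7.55 CPM at day 4 and 397 and 408 CPM at day 2 (log2 −5.67, SE 0.0753, adjusted p = 7.239e-18). Its locus held 250 and 0 bases in peaks at day 4, against 2402 at day 2. Cyp1a1, the target of the aryl hydrocarbon receptor, had 0.315 and 0.611 CPM at day 4 and 16.2 and 16.4 CPM at day 2, and kept 722 and 1229 bases in peaks at day 4, against 2379 at day 2.

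Some genes of the day 2 only class went the other way. The calcium channel subunit Cacna2d3 had 27.1 and 25.3 CPM at day 4 and 1.52 and 1.25 CPM at day 2 (log2 4.23, SE 0.171, adjusted p = 1.69e-12), while its long locus held 24208 and 26139 bases in peaks at day 4 and 4585 at day 2. The class speaks for the start alone, and the rest of this locus held more H3K18la at day 4. The natriuretic peptide receptor Npr3 (30.4 and 36.7 CPM at day 4, 3.56 and 3.18 CPM at day 2), the sorting receptor Sorcs1 (18.99 and 18.93 CPM at day 4, 1.78 and 0.739 CPM at day 2) and the calcium channel Itpr2 (9.28 and 12.9 CPM at day 4, 2.198 and 1.88 CPM at day 2) were higher too.

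Large RNA changes also occurred at starts marked on both days. Fos and Fosb, immediate early factors, had 268 and 298 CPM and 137 and 146.9 CPM at day 4, against 0.733 and 1.02 CPM and 0.209 and 0.0568 CPM at day 2. Their loci held a similar extent of H3K18la: 6759 and 6188 bases at day 4 and 4383 at day 2 for Fos, and 6368 and 6196 bases at day 4 and 5014 at day 2 for Fosb. Pax2, a factor of the mid-hindbrain and spinal interneurons, had 183 and 179 CPM at day 4 and 1.05 and 1.19 CPM at day 2, with 10417 and 7797 bases at day 4 and 4867 at day 2. Lamp5, a membrane protein of neurons, had 18.2 and 18.6 CPM at day 4 and 1 count at day 2. In the other direction, Lin28a, an RNA-binding protein of stem cells, had 3.62 and 3.22 CPM at day 4 and 123 and 121 CPM at day 2 while its locus held 4999 and 5193 bases at day 4 and 5192 at day 2. Prtg, a receptor of the early neural tube, had 7.19 and 7.99 CPM at day 4 and 389 and 398 CPM at day 2, with 15150 and 17005 bases in peaks at day 4 and 7356 at day 2. Zscan10 and Trim6, both genes of pluripotent cells, fell by 4.82 and 4.74 on the log2 scale and kept a peak at day 4.

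Around the starts, the coverage on the 2 days differed with the direction of the RNA change. At 500 bases after the start, genes at least 2-fold higher at day 4 were covered in 51.8% and 52.1% by the day 4 libraries and in 30.6% by day 2. Genes at least 2-fold lower were covered in 34.7% and 35.7% at day 4 and in 39.7% at day 2, and genes not called in 43.0% and 43.6% at day 4 and in 35.5% at day 2. The higher genes also had wide flanks: at 2000 bases after the start 15.8% and 15.9% were covered at day 4 and 6.18% at day 2, against 3.97% and 3.78% at day 4 and 2.31% at day 2 for genes not called.

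**Figure D3:**
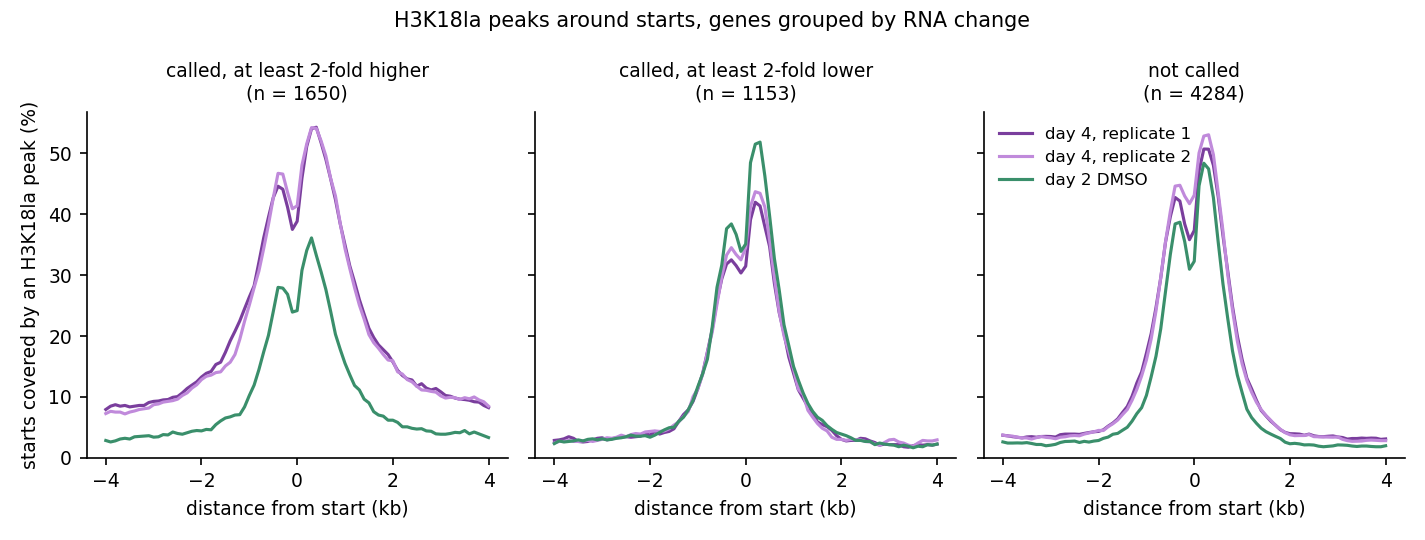
Share of starts covered by an H3K18la peak (%) against the distance from the start (kb, downstream to the right), for genes called at least 2-fold higher (n = 1650), at least 2-fold lower (n = 1153) and not called (n = 4284), in both day 4 libraries (purple) and day 2 DMSO (green). The day 4 lines run above the day 2 line at every distance for higher genes, and the day 2 line is the taller at the peak for lower genes.

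Loci of neuron, neural progenitor and late Hox genes, and also of fibroblast and glial genes, gained more H3K18la coverage than protein-coding genes did as a whole. Over all 21883 protein-coding genes with 5 kb on each side, H3K18la peaks covered 2.90% and 2.88% of the bases at day 4 and 1.71% at day 2, a ratio of 1.70 and 1.69 in the 2 day 4 libraries. Neural stem and progenitor genes were covered in 19.5% and 19.9% at day 4 and in 8.39% at day 2, and neuron genes in 5.60% and 5.72% at day 4 and in 1.77% at day 2, ratios of 2.33 and 2.38 and of 3.17 and 3.23. Fibroblast and mesenchyme genes were covered in 2.72% and 2.84% at day 4 and in 1.27% at day 2 (2.14 and 2.23), and astrocyte and oligodendrocyte genes in 6.56% and 6.52% at day 4 and in 3.27% at day 2 (2.01 and 2.0). Notch pathway genes were near the ratio of all genes, with 13.3% and 12.9% at day 4 and 7.54% at day 2. Below it were retinoic acid response genes (12.9% and 13.2% at day 4 and 9.18% at day 2), neural crest genes (6.72% and 7.63% at day 4 and 5.14% at day 2), histone acylation genes (2.47% and 2.53% at day 4 and 1.88% at day 2) and housekeeping genes (10.6% and 10.3% at day 4 and 8.30% at day 2). In the next 3 lists 1 day 4 library lay above day 2 and the other below it. Pluripotency genes were at 7.48% and 7.03% at day 4 and 7.14% at day 2, glycolysis and lactate genes at 6.82% and 7.39% at day 4 and 7.07% at day 2, and DNA replication genes at 3.28% and 3.701% at day 4 and 3.55% at day 2. Primitive streak and endoderm genes were less covered in both day 4 libraries, at 5.81% and 4.89%, than at day 2, at 6.38%.

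Among neuron genes, 6 had H3K18la at the start at day 4 only and none at day 2 only, and all 5 that were tested were higher at day 4. Myt1 had 202 and 198 CPM at day 4 and 3.14 and 3.13 CPM at day 2 (log2 5.99, SE 0.0944, adjusted p = 4.463e-17), with 8788 and 11061 bases in peaks at day 4 and 588 at day 2. Nhlh1, a bHLH factor of newborn neurons, had 191 and 165 CPM at day 4 and 7.12 and 6.14 CPM at day 2, with 9960 and 9000 bases at day 4 and 1047 at day 2. Dcx, a microtubule protein of migrating neurons, had 496 and 451 CPM at day 4 and 38.1 and 38.9 CPM at day 2, a 12.3-fold rise. Rbfox3, the splicing factor known as NeuN, rose 12.2-fold, and its locus held 45778 and 47930 bases in peaks at day 4 against 7027 at day 2. The fifth was Neurod1 (24.3 CPM at day 4 and 9.08 CPM at day 2 on average), which, like Nkx6-1, Utf1 and Dnmt3b, was named after its values were seen. Of 16 tested neuron genes marked on both days, 13 were higher and 1 was lower. Among all tested genes marked on both days 33.5% were higher and 35.5% lower, and among all tested day 4 only genes 51.8% and 14.97%.

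Neural progenitor genes were mixed. Pax6, a factor of neural progenitors (chromosome 2, 105668896 to 105698410), had 47.9 and 44.1 CPM at day 4 and 16.8 and 15.6 CPM at day 2 (log2 1.51, SE 0.123, adjusted p = 1.448e-08), with 11057 and 10388 bases in peaks at day 4 and 5158 at day 2. Zic5 rose 5.38-fold, and its locus had 7693 and 8506 bases at day 4 and none at day 2. Pax7, a dorsal neural factor marked at its start at day 2 only, had 1.84 and 1.89 CPM at day 4 and 12.3 and 13.8 CPM at day 2, with 8699 and 9874 bases at day 4 and 11869 at day 2. Of 4 day 4 only progenitor genes, 3 were higher and Nkx6-1 was not called, beside 51.8% higher over all tested day 4 only genes.

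Of 6 pluripotency genes marked at the start at day 2 only, 5 were lower at day 4 and Utf1, at means of 0.159 CPM at day 4 and 0.38 CPM at day 2, was not called (adjusted p = 0.1426). No pluripotency gene was marked at day 4 only. Besides Nodal, the lower genes were Nanog, a core pluripotency factor (0.315 and 1.17 CPM at day 4, 6.38 and 6.65 CPM at day 2), the RNA-binding L1td1 (0.262 and 0.333 CPM at day 4, 4.97 and 4.32 CPM at day 2), the orphan receptor Nr0b1 (0.315 and 0.222 CPM at day 4, 2.62 and 2.61 CPM at day 2) and the DNA methyltransferase Dnmt3b, which fell by 2.27 on the log2 scale. Nanog kept 2658 and 2497 bases in peaks over its locus at day 4, against 3255 at day 2. Of 9 tested pluripotency genes marked on both days, 6 were lower and 3 higher, and of 4 with neither, 1 was lower. Among all genes marked on both days, 33.5% were higher and 35.5% lower, and among all tested day 2 only genes 16.7% and 46.4%. Pou5f1, which encodes the core factor Oct4, was marked on both days with 1535 and 1582 bases at day 4 and 1565 at day 2, while its RNA was 2.31 and 2.997 CPM at day 4 and 39.98 and 38.02 CPM at day 2.

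The retinoic acid enzymes split. Cyp26c1, which degrades retinoic acid, was marked at its start at day 2 only, with 0.367 and 0.722 CPM at day 4 and 5.60 and 6.37 CPM at day 2. Cyp26b1, which does the same, was marked at its start at day 4 only. Its RNA was lower, with 111 and 146.8 CPM at day 4 and 210 and 206 CPM at day 2 (log2 −0.69, SE 0.0939, edgeR adjusted p = 6.55e-06). The whole Cyp26b1 locus held 6027 and 8877 bases in peaks at day 4 and 5699 at day 2. That of Cyp26c1 held 2229 and 2819 bases at day 4 and 3995 at day 2. Stra8, a retinoic acid target known from germ cells, had 1 count at day 4 and 2.30 and 2.22 CPM at day 2, and a peak at day 2 only. Nr2f2, an orphan receptor, fell by 0.35 on the log2 scale with 9166 and 8922 bases in peaks at day 4 and 8027 at day 2. Over the list, 8 of 21 tested genes were higher and 10 lower, beside 30.6% higher and 30.6% lower over all tested genes.

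All 25 DNA replication genes were lower at day 4 (median log2 −0.72), beside 30.6% lower over all tested genes. Of 21 with an annotated start, 18 were marked on both days and 3 at day 2 only: the polymerase subunit Pola1 (25.2 and 23.5 CPM at day 4, 75.8 and 82.5 CPM at day 2), the primase Prim1 and the helicase subunit Mcm3, the last 2 falling by 0.86 and 0.77 on the log2 scale. Glycolysis and lactate genes were nearly all marked on both days, 25 of 27 with a start. Ldha, which makes lactate from pyruvate, had 552 and 625 CPM at day 4 and 307 and 305 CPM at day 2 (log2 0.94, SE 0.22, adjusted p = 0.00135), with 3920 and 4739 bases in peaks at day 4 and 2902 at day 2. The glucose transporter Slc2a1, marked at its start at day 4 only, fell by 1.05 on the log2 scale. Its whole locus held 2880 and 2923 bases in peaks at day 4 and 2759 at day 2. Aldoc, also day 4 only, was higher by 0.38 (adjusted p = 0.01257), a call that ended without day 2 replicate 1 or day 4 replicate 2 (adjusted p = 0.123 and 0.122).

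Of the enzymes and readers of histone acyl marks, 18 of 33 tested were higher and 7 lower (median log2 0.21). The shares over all tested genes were 30.6% higher and 30.6% lower. Of 30 acyl mark genes with an annotated start, 27 were marked on both days. Ep300, which encodes p300, was not called, with 250.5 and 263 CPM at day 4 and 257 and 262 CPM at day 2 (log2 −0.01, SE 0.0486, adjusted p = 0.8338). Cdyl, a crotonyl-CoA hydratase and chromatin reader marked at its start at day 2 only, had 18.7 and 16.8 CPM at day 4 and 36.3 and 35.2 CPM at day 2, with 484 and 277 bases in peaks at day 4 and 2555 at day 2. Aars2, the mitochondrial alanyl-tRNA synthetase, was higher by 0.21 on the log2 scale (adjusted p = 0.0373), and this call ended under each of the 4 ways of leaving out 1 library (adjusted p = 0.0606 to 0.194).

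Other list members with H3K18la at the start on one day were few. Col1a2, a collagen chain marked at day 4 only, had 182 and 208 CPM at day 4 and 12.7 and 13.5 CPM at day 2, and 2011 and 915 bases in peaks at day 4 against none at day 2. Cspg4, a proteoglycan of glial precursors, was higher by 2.54 on the log2 scale, and Gusb, a lysosomal enzyme marked at day 2 only, fell by 0.77. Dll4, a Notch ligand, had 7.87 and 9.49 CPM at day 4 and 16.1 and 9.78 CPM at day 2, and Foxa1, an endoderm and floor plate factor, had 1.78 and 2.83 CPM at day 4 and 3.61 and 4.77 CPM at day 2. The call of Dll4 (adjusted p = 0.0436) ended without day 2 replicate 1 (0.618), day 4 replicate 1 (0.231) or day 4 replicate 2 (0.063), and with the size factors or Wald test of DESeq2 (0.0544 and 0.105). The call of Foxa1 (adjusted p = 0.01518) ended without day 2 replicate 2 (0.127) or day 4 replicate 1 (0.163). Of 14 tested neural crest genes 6 were higher and 6 lower, of 13 astrocyte and oligodendrocyte genes 4 were higher and 2 lower, and of 16 housekeeping genes 4 were higher and 8 lower. Over all tested genes, 30.6% were higher and 30.6% lower.

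All 4 Hox clusters had more bases in H3K18la peaks at day 4. The ratio of day 4 to day 2 was 1.70 and 1.69 over all protein-coding genes. It was higher for HoxC (2.37 and 2.22) and HoxD (3.83 and 3.81) and lower for HoxA (1.61 and 1.60) and HoxB (1.58 and 1.55). A ratio has little room to rise from a high day 2 share. That share was 41.4% for HoxA and 35.6% for HoxB, against 1.71% over all protein-coding genes, so the ratios do not rank the bases gained. HoxA (chromosome 6, 52155367 to 52260880) had 66.6% and 66.3% of its bases in peaks at day 4 and 41.4% at day 2, and HoxB (chromosome 11, 96194316 to 96368254) had 56.1% and 55.2% at day 4 and 35.6% at day 2. HoxC (chromosome 15, 102921131 to 103036856) had 38.7% and 36.3% at day 4 and 16.4% at day 2. HoxD (chromosome 2, 74668225 to 74765142) had 43.9% and 43.8% at day 4 and 11.5% at day 2, the lowest day 2 share of the 4. H3K9ac covered more of HoxD than H3K18la on both days, with 49.3% and 49.8% at day 4 and 23.5% at day 2.

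**Figure D4:**
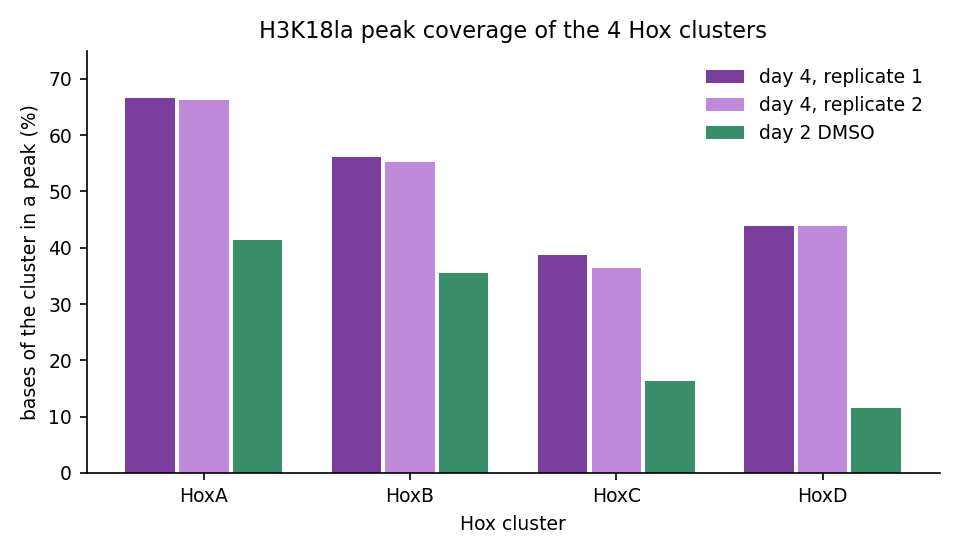
Share of the bases of each Hox cluster, from its first to its last gene, that lay in an H3K18la peak (%, vertical axis), in the 2 day 4 libraries (purple) and the day 2 DMSO library (green). The day 4 bars stand above the day 2 bar in all 4 clusters, and the 2 day 4 libraries lie farthest apart at HoxC (38.7% and 36.3%).

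Paralogs 1 to 5 and paralogs 6 to 13 differed in coverage. Genes of paralogs 1 to 5, at the end that retinoic acid activates first, were covered in 84.6% and 85.6% at day 4 and in 57.3% at day 2 (ratios of 1.48 and 1.49), and 9 of 15 tested were higher and 4 lower in RNA. Genes of paralogs 6 to 13 were covered in 38.6% and 37.2% at day 4 and in 13.6% at day 2 (2.84 and 2.73), and 12 of 17 tested were higher and none lower, with a median log2 fold change of 3.15. The shares over all tested genes were 30.6% higher and 30.6% lower. With 57.3% already covered at day 2, the ratio of paralogs 1 to 5 had less room to rise. Hoxd3 and Hoxd4 were marked at the start at day 4 only, and Hoxd4 had 125 and 115 CPM at day 4 and 17.6 and 17.2 CPM at day 2, with 14297 and 13902 bases in peaks at day 4 and 2263 at day 2. Hoxd3 had 73.3 and 75.2 CPM at day 4 and 17.4 and 15.5 CPM at day 2. Hoxd8 had 5.98 and 5.88 CPM at day 4 and 0.314 and 0.0568 CPM at day 2, with 5869 and 4926 bases at day 4 and none at day 2.

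Many day 4 only regions inside one gene went with a higher RNA level. Over the gene and 5 kb on each side, genes with no day 4 only region were higher in 24.9% and lower in 36.8% (n = 10772). Genes with 1 such region were higher in 37.1% (n = 2493), those with 2 or 3 in 52.8% (n = 1492), those with 4 to 7 in 62.4% (n = 551) and those with 8 or more in 70.8% (n = 236). The share lower fell across the same bins to 12.7%. Gene length moved along: the median length was 227 kb with 8 or more regions and 18.5 kb with none, and the part of length was not tested. Counts of day 2 only peaks rose with length as well. Genes with no day 2 only peak (n = 10328) were higher in 31.6% and lower in 31.0%. Genes with 4 to 7 of those (n = 311, median 189 kb) were more often higher, in 43.7%, than lower, in 33.4%. Genes with 8 or more (n = 47, median 337 kb) were higher in 40.4% and lower in 46.8%.

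**Figure D5:**
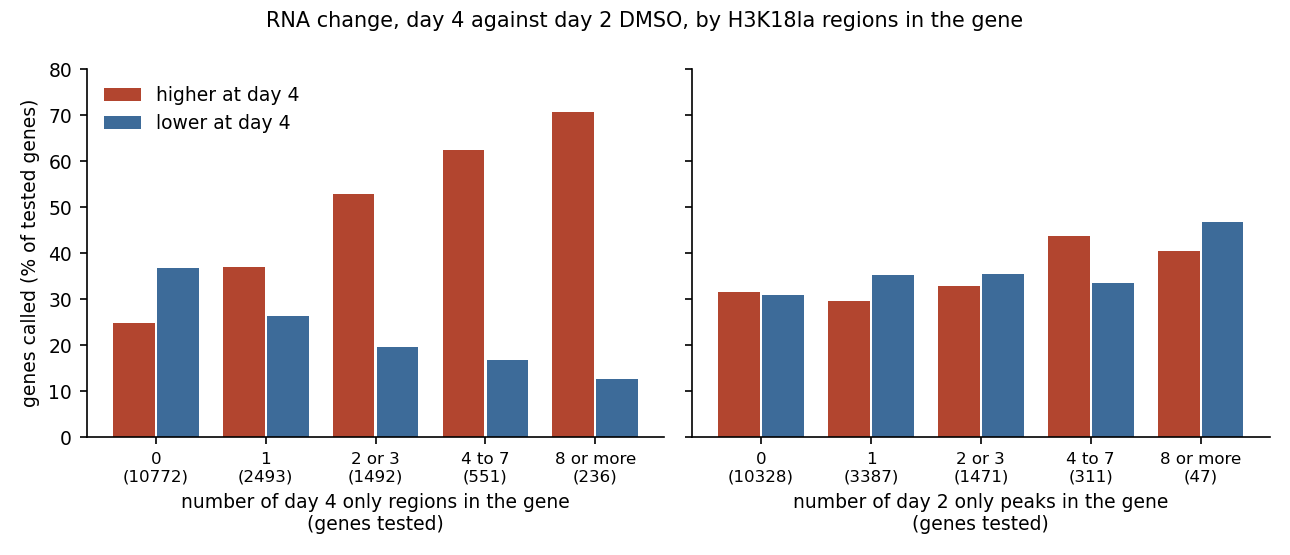
Share of tested genes called higher (red) or lower (blue) at day 4 against day 2 DMSO (%, vertical axis) by the number of day 4 only regions (left) or day 2 only peaks (right) in the gene and 5 kb on each side, with the number of genes in brackets. The share of higher genes climbs from 24.9% to 70.8% on the left, with no such climb of lower genes on the right before the last bin of 47 genes.

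The genes with the most regions, named after their values were seen, were long genes of the nervous system and others. Gse1 held 74 day 4 only regions and 5 day 2 only peaks and was higher by 0.54 on the log2 scale (adjusted p = 1.193e-07). Nav2, a neuron navigator, held 41 and 13 and was higher by 1.12. Auts2, a gene of neuronal development, held 38 and 6 and was higher by 2.50, and the cadherin Cdh22 held 38 and 1 and was higher by 3.64. The guidance ligand Slit3 (35 and 5, log2 3.25) and the RNA-binding Celf4 (32 and 3, log2 4.30) were higher too. Smaller rises than these were those of Slc39a11 (38 and 6, log2 0.33), Skap1 (37 and 6, log2 1.01) and Foxn3 (30 and 3, log2 0.76). Slc39a11 and Skap1 were near the threshold (edgeR adjusted p = 0.01047 and 0.04797). Both lost their calls in some of the fits that dropped a library, and Skap1 also with the Wald test of DESeq2 (adjusted p = 0.0785). The RNA-binding Msi2 held 37 and 2 and was not called (log2 −0.05, adjusted p = 0.4062). By day 2 only peaks, the ion channel Asic2 led with 34, beside 14 day 4 only regions, and was lower by 2.02 on the log2 scale. The next genes went both ways: the adhesion proteins Opcml (16 day 2 only peaks, 11 day 4 only regions) and Tenm2 (15 and 15) were higher by 0.92 and 1.54, and the homeobox gene Pknox2 (15 and 9) and the imprinted adaptor Grb10 (14 and 1) fell by 1.01 and 1.83 on the log2 scale. Pde11a, a phosphodiesterase with 16 and 5, was lower too (adjusted p = 1.028e-06). The call of Opcml (adjusted p = 0.00608) ended without day 4 replicate 1 (0.0859).

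Other marks were seen less often at one-day regions than at shared ones. H3K9ac was present at day 4 (in both libraries) at 44.1% of day 4 only regions and at 89.3% of shared day 4 regions. At day 2 it was present at 13.1% of the day 4 only regions and at 82.8% of the shared ones. H3K9cr was found at day 4 at 25.6% of day 4 only and 79.8% of shared regions, and ATAC peaks at 5.97% and 46.5%. Day 2 only peaks carried H3K9ac at day 2 in 38.9%, and 30.4% carried it at day 4. A peak of ATAC at day 4 lay on 10.1% of these day 2 only peaks.

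Most one-day regions carried no H3K9ac call on either day. H3K9ac was called at day 4 only at 31.6% of day 4 only regions, on both days at 12.6% and on neither day at 55.3%. Of day 2 only peaks, 12.7% had H3K9ac at day 2 only, 26.2% on both days and 56.9% on neither. Near starts the marks came together more: of day 4 only regions within 1 kb of a start, 77.7% had H3K9ac at day 4 and 56.5% had it at day 2.

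Genes could be split by H3K9ac at the same start. Of the 668 tested day 4 only genes, 556 had H3K9ac on both days, and 48.9% of these were higher and 17.3% lower. The 80 that had H3K9ac at day 4 only were higher in 77.5%, with a median log2 fold change of 2.88. Of the 915 tested day 2 only genes, 844 had H3K9ac on both days, and 47.6% of these were lower and 17.3% higher. Where both marks were called on both days (n = 8107), 33.5% were higher and 35.7% lower. Genes with H3K18la on neither day but H3K9ac at day 4 only (n = 166) were higher in 47.0% and lower in 5.42%.

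The other marks had fewer regions of one day. Day 4 only were 48.4% of day 4 regions of H3K18la, 35.7% of those of H3K9ac and 22.6% of those of H3K9cr. Day 2 only were 37.0%, 12.9% and 17.4% of the day 2 peaks of the same marks. The H3K18la peaks were weaker calls, with a median −log10 q-value of 6.67 and 7.82 at day 4 and 8.3 at day 2. For H3K9ac it was 32.4 and 32.6 at day 4 and 42 at day 2, and for H3K9cr 53.2 and 54.0 at day 4 and 58.9 at day 2. Weak H3K18la regions were less often shared, and the part of peak strength in these shares was not tested. Genes with H3K9ac at the start at day 4 only were higher in 55.7% (n = 280) and those with H3K9cr in 59.3% (n = 216), against the 51.8% of H3K18la (n = 668). The difference between marks was not tested.

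Promoters of the one-day classes held somewhat fewer CpGs than those of the shared class. In the 300 bases around the start, the median CpG count was 18 for day 4 only genes, 17 for day 2 only genes, 22 for genes marked on both days and 8 for genes with neither, against 20 over all tested genes with a start and 7 over the 32851 promoters of the table. The GC box GGGCGG was found, on either strand, in 63.0% of day 4 only, 62.2% of day 2 only and 69.3% of shared promoters, against 62.9% of all tested genes with a start and 35.7% of all promoters. The E-box CAGATG of proneural factors was found in 12.9%, 11.0% and 10.6% of the same classes, in 11.8% of all tested genes with a start and in 17.1% of all promoters. The retinoid half-site AGGTCA was found in 11.7%, 12.6% and 10.9%, in 12.1% of all tested genes with a start and in 16.3% of all promoters. The one-day classes lay within about 1 percentage point of the tested genes for the GC box, the E-box CAGATG and the half-site. Day 4 only promoters lay farther off for other motifs. The palindromic E-box CACGTG was found in 7.04% of them and the TATA box TATAAA in 9.43%. Over all tested genes with a start these were 9.80% and 7.19%, and in day 2 only promoters 10.3% and 7.54%. The octamer ATGCAAAT was found in 1.20% of day 4 only, 1.97% of day 2 only and 1.44% of all tested promoters. The differences were not tested.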

How the data were processed

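Used were 14 peak lists (H3K18la, H3K9ac, H3K9cr and ATAC) and 1 RNA table of 10 libraries in 5 groups; input libraries were not used here. The submitters' processing notes list Salmon 1.1.0, MACS2 2.2.7.1, Bowtie2 2.4.1 and DESeq2 1.26.0 and the build GRCm38, and do not say how peaks were called or against which control. Per the file headers, each deposited peak has a pileup signal, a −log10 p-value, a −log10 q-value and a fold enrichment (a ratio). The fold enrichment is the authors' value and was used within a list, and day 4 regions were ranked by the lower of their 2 values. From peak lists alone the depth of the ChIP libraries is unknown, and 1 day 2 library allows no test between days. The deposited RNA values are estimated counts per gene, made by the authors, and were rounded to whole numbers here.

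Members and lists were chosen with earlier results of these data known. edgeR 4.0.16 (filterByExpr, TMM scaling, 1 quasi-likelihood fit over the 10 libraries) tested day 4 against day 2 DMSO in 17789 genes, with Benjamini-Hochberg adjustment over all of them; the step was tested on simulated data. Library numbers did not pair the groups (correlation of deviations −0.0748). Starts came from RefSeq promoters of GRCm38.p6, which gave a start to 12018 tested genes, and genes without one were in no class. To be named, a called gene had to change 2-fold or more, reach 5 CPM on average on its higher day and have no overlap between days; taken were the 8 largest changes in the direction of a one-day class and 4 in the other, and 4 each way in the shared class. Added to these were up to 4 called members a list and class averaging 1 CPM or more on either day, and 5 fixed genes. Genes whose fold moved by over 1.5-fold without 1 library are given in CPM only. Alternatives changed peak threshold, list length, overlap, window, scaling, filter, test (DESeq2 1.42.0) and libraries.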

Additional observations from a re-analysis of the deposited data

How the results depend on the processing

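Called genes stayed within 1.5 times of the 5443 higher and 5437 lower under every RNA alternative run: 4707 to 5656 higher and 4708 to 5498 lower. With the replicate block, 5415 were higher and 5398 lower, and the class shares were 51.5% higher and 15% lower (day 4 only) and 16.4% higher and 45.8% lower (day 2 only); of the genes named, the block ended the call of Dll4 (adjusted p = 0.052). Of 368 genes followed, 322 kept their side of the threshold in all 9 alternatives and none turned direction while called. Day 4 only regions numbered 11363 at equal list length, 39018 with the union of the day 4 libraries and 28151 to 31405 with 1 day 4 library left out, against 20604. Day 2 only peaks numbered 8881 with the union and 10929 to 11291 with 1 library left out, against 13466, and shared regions 22906 to 23460. Higher genes of the day 4 only class were 56.4% at equal list length, 46.5% with the union, 41.1% with the gene body as window, 41.4% with no filter and 57.1% in a fit of the 4 libraries compared. Lower genes of that class were 11.6% with no filter. In the day 2 only class, higher genes were 20% at equal length and 13.8% with no filter, and lower genes were 41.4% with the Wald test of DESeq2, 39.2% with no filter and 52.4% in the fit of 4 libraries. Leaving out 1 library gave 43.1% to 48.7% higher and 11.7% to 16.5% lower in the day 4 only class, and 12.9% to 17% higher and 38.7% to 47.1% lower in the day 2 only class. With at least 0.5 of the H3K18la region overlapped, H3K9ac lay on 32.3% and ATAC on 0.976% of day 4 only regions, and H3K9ac on 32.9% of day 2 only peaks. At a −log10 q of at least 5 these were 55.6%, 8.15% and 49.5%, and with the other mark in either day 4 library H3K9ac lay on 55.2% and ATAC on 15% of day 4 only regions. The causes of these shifts were not tested. Peak lists without read counts limit the region results, since a peak missed in a shallow library cannot be told from one that is absent, and an RNA group with 1 library left out assumes that the lone library varies like the other groups.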
